A study of Homo sapiens with 9 samples.

Results

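The genes described here are 10 noncoding genes that cancer studies often measure. They are the nuclear long noncoding RNAs *MALAT1* and *NEAT1*, the lncRNA *PVT1*, the snoRNA host genes *GAS5* and *SNHG1*, the lncRNAs *TUG1* and *HOTAIR*, and the microRNA host genes *MIR100HG*, *MIR17HG* and *MIR205HG*. They were listed by symbol and not by a cut-off on their values, though earlier results of these data were known at that time. All 10 were found among the 60708 genes of the deposited tables. The cells were labelled MDA-MB-231, an established human triple-negative breast cancer line of the basal-B, mesenchymal type, and were untreated. The 9 RNA-sequencing libraries comprised 3 of unedited cells (WT), 3 of the clone CS16 and 3 of the clone CS19, and both clones carried the genotype label *SNAI1*-KO. *SNAI1* encodes the zinc-finger repressor SNAIL, and the clones were grown from single cells after CRISPR/Cas9 editing with donor plasmids and puromycin selection. The *SNAI1*-KO label thus covered 2 clones, and clonal differences and the loss of *SNAI1* cannot be told apart in this design. Nothing in the labels states that the 3 libraries of a group came from separate cultures, so p-values measure the spread between these libraries, which may be technical.

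Long noncoding RNAs are transcripts that are not translated, and they work in several ways. *MALAT1* collects in nuclear speckles, where splicing factors are stored, and *NEAT1* is the scaffold of paraspeckles. Other noncoding genes are hosts: the spliced transcript is a carrier, and small RNAs are cut from its introns or exons. *GAS5* and *SNHG1* carry snoRNAs, which guide chemical modification of ribosomal RNA, and their spliced transcripts are short-lived because nonsense-mediated decay removes them during translation. *MIR17HG*, *MIR100HG* and *MIR205HG* carry microRNAs, which bind messenger RNAs chiefly through bases 2 to 8, the seed.

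The microRNAs carried by the hosts are shown because they tell which targets a change of each host could concern. Mature sequences came from RefSeq on GRCh38.p14, were matched to the hosts by position and strand, and have the seed in capitals. The hairpins of *MIR17HG* lay inside its exons on chromosome 13.
miR-17-5p: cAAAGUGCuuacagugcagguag
miR-20a-5p: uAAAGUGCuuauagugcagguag
miR-18a-5p: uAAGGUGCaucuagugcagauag
miR-19a-3p: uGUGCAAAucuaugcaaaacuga
miR-19b-3p: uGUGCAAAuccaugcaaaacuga
miR-92a-3p: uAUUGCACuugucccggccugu
miR-17-5p and miR-20a-5p shared a seed, as did miR-19a-3p and miR-19b-3p, and miR-18a-5p and miR-92a-3p each had a seed of their own. The 3 microRNAs of *MIR100HG* lay in its introns on chromosome 11.
let-7a-5p: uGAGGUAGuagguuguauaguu
miR-100-5p: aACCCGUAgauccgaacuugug
miR-125b-5p: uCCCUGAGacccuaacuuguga
These 3 had different seeds. *MIR205HG* on chromosome 1 carried 1 microRNA, which is known in basal epithelial cells.
miR-205-5p: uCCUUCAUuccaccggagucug
The libraries measured the host transcripts. Mature microRNAs and snoRNAs are too short for them and were not measured.

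The libraries held between 19527195 and 28627777 counted read pairs. A floor of 3 counts corresponded to between 0.0984 and 0.172 CPM (counts scaled to the same library total), computed here with TMM-scaled library sizes. For *SNAI1* the WT libraries held 16, 38 and 21 counts, the CS16 libraries 26, 40 and 49, and the CS19 libraries 57, 94 and 94. Counted over the whole gene, the target was thus not lower in the libraries labelled *SNAI1*-KO. In *SNAI1*-KO against WT its log2 fold change was 0.89 (SE 0.42, adjusted p = 0.0838, edgeR), and without WT-2 it passed as higher at 1.40. Such counts do not show whether the product is intact. For these clones the study reported deletions within *SNAI1* in the aligned reads, lower RT-qPCR signal at each exon and no detectable protein. The labelled cell type was checked with 12 basal-B and mesenchymal markers, whose summed level was 10485 to 13425 CPM in WT and 532 to 589 CPM in the *SNAI1*-KO libraries. *CD44* and *S100A6* were at or under the floor in all 6 of the latter. In the opposite direction, *CDKN2A*, *CDKN2B* and *MTAP*, neighbours at 9p21, had 0 counts in every WT library and summed to 164 to 182 CPM in the *SNAI1*-KO libraries. Summed markers of other cell types moved too, from 8.33-12.0 to 105-158 CPM for 9 neuronal markers, from 76.1-120 to 135-155 CPM for 10 embryonic kidney markers, from 1620-2402 to 325-391 CPM for 11 luminal breast markers and from 22.6-27.3 to 2.66-4.08 CPM for 5 haematopoietic markers. *NEFL* and *NEFM* were among the neuronal markers at or under the floor in WT, and averaged 103 and 26.8 CPM in the *SNAI1*-KO libraries. The other 2 tested neuronal markers went the other way, *TUBB3* with a log2 fold change of -3.47 and *MAP2* with -5.03. Thus the libraries labelled *SNAI1*-KO did not carry the marker profile of the labelled line, and what part this has in the results below was not tested. Library WT-2 was unlike both of its replicates: the chi-square over genes, divided by its degrees of freedom, was 221 and 271 for the pairs that include it, and 5.32 to 21.1 for every other pair of replicates. Results that rest on WT-2 are therefore given with and without it.

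A gene was called when its fitted log2 fold change was at least 2 in size and its Benjamini-Hochberg adjusted p was below 0.05 in edgeR's quasi-likelihood test over all genes tested, and it passed when the adjusted p alone was below 0.05. In *SNAI1*-KO against WT, 4 of the 10 genes were called lower (*MALAT1*, *NEAT1*, *PVT1* and *MIR100HG*) and 2 were called higher (*HOTAIR* and *MIR17HG*). Of all 19631 genes tested, 14.3% were called lower and 12.6% higher, so calls were common in this comparison. Of the other 4, *GAS5*, *SNHG1* and *TUG1* did not pass, and *MIR205HG* was too low to be tested. *HOTAIR* and *MIR100HG* met the filter on low counts only through the group in which they were high. The same 6 genes were called in the same direction in CS16 against WT, where 15.3% of genes were called lower and 11.8% higher, and in CS19 against WT, where the shares were 14.4% and 12%. Both comparisons shared the WT libraries.

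**Figure D1:**
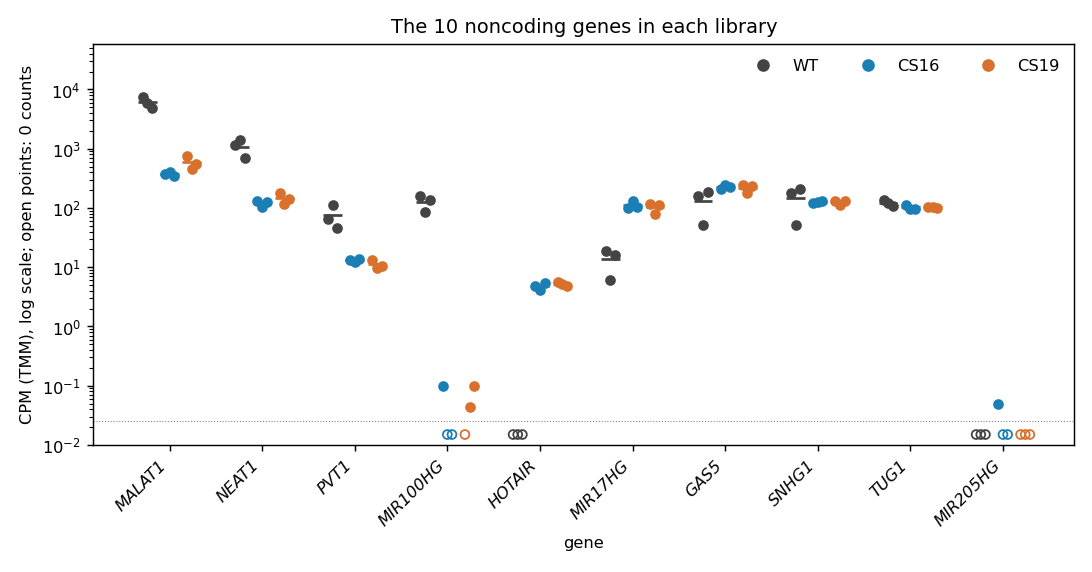
CPM of the 10 genes in each of the 9 libraries on a log scale, coloured by group, with open points for 0 counts and short lines for the mean of a group without zeros. *MALAT1*, *NEAT1*, *PVT1* and *MIR100HG* lie lower in all 6 *SNAI1*-KO libraries than in any WT library, and *HOTAIR* and *MIR17HG* lie higher.

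*MALAT1* (ENSG00000251562.8, GRCh38 chr11:65497688-65506516, plus strand, a single exon block) had the highest counts of the 10 genes. Its level was 7600, 6010 and 4910 CPM in WT, 371, 407 and 346 CPM in CS16, and 743, 458 and 560 CPM in CS19. The lowest WT library was thus far above the highest *SNAI1*-KO library. Means were 6173 ± 1352 CPM (SD, n = 3) in WT and 481 ± 149 CPM (SD, n = 6) in the *SNAI1*-KO libraries, which was 12.8-fold lower (log2 fold change -3.68, SE 0.25, adjusted p = 1.66e-07). The 2 clones also differed from each other: no CS16 library reached any CS19 library, and the log2 fold change of CS16 against CS19 was -0.66 (SE 0.14, adjusted p = 0.00325). In that comparison 12.7% of 17538 genes passed in this direction. With the spread estimated from all 3 groups together, the difference between clones did not pass (adjusted p = 0.194).

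*NEAT1* (ENSG00000245532.9, chr11:65422774-65445540, plus strand), which lies on the same arm of chromosome 11, fell in the same libraries. It had 1134, 1420 and 686 CPM in WT, 130, 105 and 125 CPM in CS16, and 181, 116.1 and 142 CPM in CS19. The groups did not overlap. The mean was 1080 ± 370 CPM in WT (SD, n = 3) and 133 ± 26.4 CPM in the *SNAI1*-KO libraries (SD, n = 6), an 8.11-fold difference (log2 fold change -3.02, SE 0.22, adjusted p = 3.57e-07). The long and the short *NEAT1* isoform start together and are counted as 1 gene, so they could not be told apart. The fitted fall was 3.14 (SE 0.31) on the log2 scale in CS16 and 2.85 (SE 0.33) in CS19. The difference between clones was -0.29 with a 95% interval from -0.58 to 0.0017 (adjusted p = 0.136), and it passed without CS19-2 (-0.42, adjusted p = 0.00786) and with no filter on low counts (-0.29, adjusted p = 0.00249).

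The coding gene nearest to *NEAT1* moved less. *FRMD8*, 9249 bases before *NEAT1*, fell by 1.06 on the log2 scale (SE 0.26, adjusted p = 0.00370) and was not called, and without WT-2 it fell by 0.48 (adjusted p = 0.00145). The proteins that gather on *NEAT1* were also counted. Of 13 paraspeckle proteins, 6 passed as higher, 0 as lower and 0 were called, with a median log2 fold change of 0.18 against -0.0040 over all genes tested, of which 31.1% passed as higher and 32.6% as lower. Without WT-2, 7 passed as higher, against 34% of all genes, and the median was 0.32. Among them, named here after their values were seen, were *SFPQ*, a core paraspeckle protein that binds *NEAT1*, at 393 ± 39.2 CPM in WT and 721 ± 64.5 CPM in the *SNAI1*-KO libraries, and *CPSF6*, a 3′ end processing factor, at 104 ± 22.4 and 266 ± 17.6 CPM. Of 11 nuclear speckle proteins, 5 passed as higher and 3 as lower. The 1 called gene was *SRRM2*, a speckle scaffold, and this rested on WT-2, where it had 25095 counts against 3900 and 2076 in the other WT libraries. Without WT-2, 6 speckle genes passed as higher, 2 as lower and 0 were called.

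*PVT1* (ENSG00000249859.12, chr8:127794526-128187101, plus strand) lies downstream of *MYC* and is often gained with it in tumours. Its level was 66.3, 111.7 and 46.7 CPM in WT, 13.2, 12.3 and 13.8 CPM in CS16, and 13.0, 9.86 and 10.5 CPM in CS19. All 6 *SNAI1*-KO libraries were lower than every WT library. The log2 fold change was -2.63 (SE 0.23, adjusted p = 1.57e-06), from a mean of 74.9 ± 33.3 CPM (SD, n = 3) to 12.1 ± 1.58 CPM (SD, n = 6). WT-2 was the highest library, and the log2 fold change without it was -2.23 (adjusted p = 2.01e-07). The 2 clones had a difference of 0.23 with a 95% interval from -0.033 to 0.50, which did not pass (adjusted p = 0.190) and which passed without CS19-1 (0.37, adjusted p = 0.0480). *MYC*, 51575 bases before *PVT1*, did not move with it. *MYC* had 123 ± 26.6 CPM in WT (SD, n = 3) and 138 ± 35.7 CPM in the *SNAI1*-KO libraries (SD, n = 6), with a log2 fold change of 0.17 (SE 0.23, adjusted p = 0.549). Its level was 155 to 176 CPM in CS16 and 98.0 to 124 CPM in CS19, a difference that passed (log2 fold change 0.65, SE 0.09, adjusted p = 1.13e-04).

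*MIR100HG* (ENSG00000255248.9, chr11:122028325-122556721, minus strand) was the member that fell furthest. It had 3174, 1522 and 2631 counts in the WT libraries, 2, 0 and 0 in CS16, and 0, 1 and 3 in CS19. It was therefore plainly measured in all WT libraries and at or under the floor of 3 counts in all *SNAI1*-KO libraries. Over the group, 7327 WT counts stood against 6 in the *SNAI1*-KO libraries, a ratio of 3031-fold with an exact 95% counting interval from 1392 to 8262 (adjusted p = 1.63e-09). The interval covers counting error only. Its 3 intronic hairpins, counted as genes of their own, followed the host. *MIRLET7A2* had 105, 47 and 68 counts in WT, *MIR125B1* had 50, 16 and 40, and *MIR100* had 19, 9 and 13, and each had 0 in all 6 *SNAI1*-KO libraries. Against a floor of 3 counts per library this was at least 29.3-fold lower for *MIRLET7A2*, at least 14.0-fold for *MIR125B1* and at least 5.47-fold for *MIR100*. Such pairs come from longer precursor RNA. *BLID*, a small gene within the host that shares 83 exon bases with it, went from 122, 95 and 77 counts to 0 (at least 39.8-fold lower). The nearest coding genes outside were lower as well: *UBASH3B*, a phosphatase gene 99001 bases away, fell by 3.05 on the log2 scale (SE 0.15, adjusted p = 1.54e-08) and was called, and *SORL1*, 394562 bases to the other side, fell by 0.82 (SE 0.16, adjusted p = 9.86e-04) and was not.

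The seeds shown above allow a look at other hosts with the same seeds, chosen by sequence after the values were known. *MIR99AHG* on chromosome 21 is the paralogous host and carries all 3 seeds of *MIR100HG*.
miR-99a-5p: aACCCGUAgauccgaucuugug
let-7c-5p: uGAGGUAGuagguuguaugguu
miR-125b-5p: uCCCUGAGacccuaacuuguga
*MIR99AHG* went the other way from *MIR100HG*. It had 11, 10 and 5 counts in WT, 226, 234 and 337 in CS16, and 238, 245 and 382 in CS19, a log2 fold change of 4.65 (SE 0.28, adjusted p = 5.91e-08). Even so, its level in the *SNAI1*-KO libraries, 11.6 ± 1.11 CPM, was far below the 126 ± 35.7 CPM of *MIR100HG* in WT. CPM are not scaled to gene length, so this comparison between genes is of read pairs.

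Of 5 other hosts of let-7 seeds, whose microRNAs repress growth and stem cell genes, 4 passed as lower and *MIR4500HG* as higher in the *SNAI1*-KO libraries. Of all genes tested, 32.6% passed as lower and 31.1% as higher. *MIRLET7BHG* had 19.5, 52.2 and 16.4 CPM in WT, 2.16 to 3.39 CPM in CS16 and 6.59 to 8.06 CPM in CS19 (log2 fold change -2.56, SE 0.46, adjusted p = 4.33e-04). Without WT-2 this was -1.85 (adjusted p = 0.00169), which is under the cut-off for a call. The clones differed as well (CS16 against CS19 -1.39, SE 0.18, adjusted p = 7.32e-05). *MIRLET7IHG* fell by 1.62 on the log2 scale (SE 0.24, adjusted p = 9.29e-05), *MIRLET7A1HG* by 0.67 (SE 0.19, adjusted p = 0.00883) and *MIR4458HG* by 1.59 (SE 0.41, adjusted p = 0.00486), or by 2.07 without WT-2, where it was called. *MIR4500HG* was called higher but had at most 32 counts in any library, and *MIR302CHG*, which shares the miR-92a seed, had at most 19. *LIN28B*, whose product blocks the maturation of let-7 precursors, had 0 counts in every WT library and 2701 to 5655 in the *SNAI1*-KO libraries, at least 1152-fold higher. It was 231 ± 7.0 CPM in CS16 and 133 ± 10.3 CPM in CS19.

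**Figure D2:**
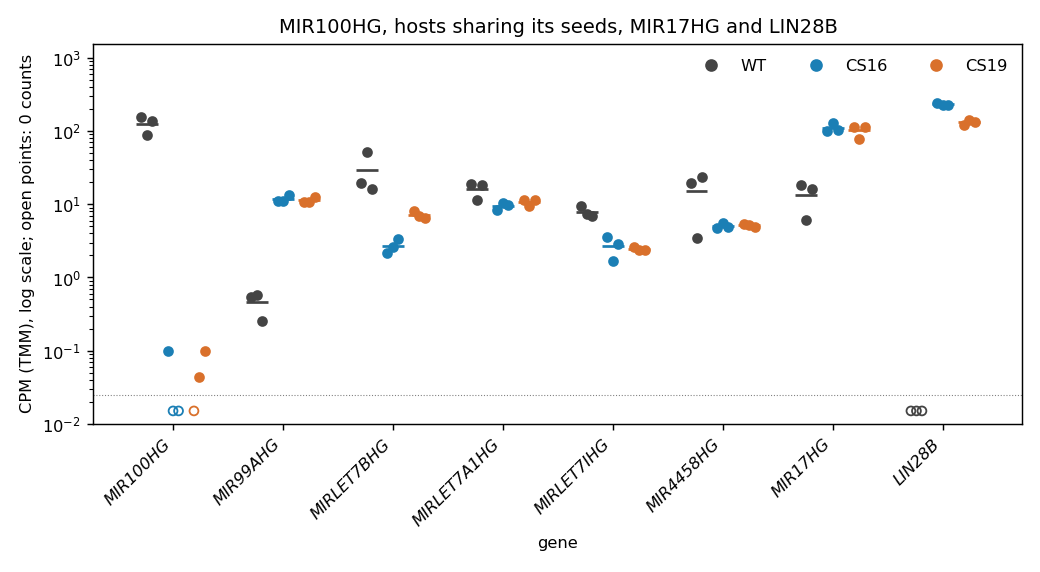
CPM per library, on a log scale, of *MIR100HG*, of 5 hosts of microRNAs with a seed that *MIR100HG* also carries, of *MIR17HG* and of *LIN28B*, with open points for 0 counts and lines for group means. *MIR4500HG*, which also carries the let-7 seed and was called higher, is not shown. *MIR99AHG* is at 0.257 to 0.572 CPM in WT and at 10.6 to 13.4 CPM in the *SNAI1*-KO libraries, while *MIR100HG* is at 87.1 to 157 CPM in WT and at most 0.0984 CPM in the others.

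*MIR17HG* (ENSG00000215417.13, chr13:91347820-91354579, plus strand), the host of the miR-17-92 cluster, which is best known as a growth-promoting cluster and a target of MYC, was higher in every *SNAI1*-KO library. It had 18.5, 6.01 and 16.0 CPM in WT, 101, 129 and 104 CPM in CS16, and 115.2, 77.9 and 113.3 CPM in CS19. Means were 13.5 ± 6.62 CPM (SD, n = 3) and 107 ± 17.2 CPM (SD, n = 6), 7.89-fold apart (log2 fold change 2.98, SE 0.33, adjusted p = 1.13e-05). WT-2 was the lowest library, and the log2 fold change without it was 2.62. The 2 clones had a difference of 0.11 with a 95% interval from -0.18 to 0.40 (adjusted p = 0.594). Its 6 hairpins had 0 counts in all libraries (with the counting options used, a pair that lies on both a hairpin and the exon of the host is assigned to neither gene). The next coding gene, *GPC5*, was called higher too (log2 fold change 4.21, SE 0.48, adjusted p = 1.40e-05), at 2, 5 and 4 counts in WT and 49 to 131 in the *SNAI1*-KO libraries.

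*MIR205HG* (ENSG00000230937.12, chr1:209428817-209432838, plus strand) had 0 counts in 8 libraries and 1 count in CS16-1. It was at or under the floor in all groups, and no difference was detectable at this depth.

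Of the 84 genes named as microRNA hosts, which include these 3, 41 could be tested in *SNAI1*-KO against WT. There were 8 calls of higher and 13 of lower expression, against 12.6% and 14.3% of all genes tested. Of the 41, 3 had 0 counts in all WT libraries and 4 had 0 counts in all *SNAI1*-KO libraries. These met the filter on low counts only through the other group and could be called in 1 direction only. The median log2 fold change of the 41 hosts was -0.41, against -0.0040 for all genes. The called genes with the largest fitted changes were *MIR2052HG*, *MIR3171HG* and *MIR31HG* among those that were higher, each at 0 in all WT libraries, and *MIR100HG*, *MIR137HG* and *MIR3142HG* among those that were lower, with the last 2 at 0 in all *SNAI1*-KO libraries. *MIR2052HG* was at least 20.8-fold higher, *MIR3171HG* at least 4.89-fold and *MIR31HG*, which lies at 9p21, at least 2.79-fold. *MIR137HG* was at least 75.3-fold lower and *MIR3142HG* at least 24.4-fold. Without WT-2 there were 8 calls of higher and 13 of lower expression, with *MIR4458HG* called and *MIRLET7BHG* not. Of 14 tested genes for microRNA processing and silencing, 5 passed as higher and 3 as lower, against 31.1% and 32.6% of all genes tested. *LIN28B* was the 1 called gene. Without WT-2, 8 of these genes passed as higher and 2 as lower, against 34% and 33.2% of all genes. Named after their values were seen, *DICER1*, which cuts hairpin precursors, had 183 ± 37.7 CPM in WT and 337 ± 33.0 CPM in the *SNAI1*-KO libraries, and *AGO2*, the slicing Argonaute, had 186 ± 81.9 and 79.4 ± 4.43 CPM.

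*HOTAIR* (ENSG00000228630.5, chr12:53962308-53974956, minus strand) is transcribed from the HOXC cluster and is known for binding chromatin modifiers. It had 0 counts in all 3 WT libraries, 97, 86 and 134 in CS16, and 122, 120 and 148 in CS19. In CPM this was 4.74 ± 0.615 in CS16 and 5.21 ± 0.351 in CS19 (SD, n = 3 each), at least 31.5-fold above a floor of 3 counts per WT library for both clones together (adjusted p = 1.62e-07). The 2 clones had a difference of -0.13 with a 95% interval from -0.46 to 0.20 (adjusted p = 0.569). The coding genes around it were near 0 in WT as well: *HOXC11*, which overlaps its span on the other strand without shared exon bases, had 0 counts in WT and 192 to 295 in the *SNAI1*-KO libraries, and *HOXC10* had 1, 0 and 0 counts and then 187 to 284. *HOXC12*, 3352 bases to the other side, had at most 2 counts in any library. *HOXC13*, which lies beyond *HOXC12* and is named here after its values were seen, had 0 counts in WT and 140 to 253 in the *SNAI1*-KO libraries. HOX genes give positional identity to cells.

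The lncRNAs of the HOX clusters were counted together. Of 16, *HOTAIR* included, 15 were tested and 13 were called higher, 0 lower, with 8 of them at 0 counts in all WT libraries. Those 8 met the filter on low counts only through the *SNAI1*-KO libraries and could only be called higher. Of all genes tested, 12.6% were called higher and 14.3% lower. The median log2 fold change of the 15 was 6.51, or 4.15 with those 8 set at their lower bounds. The largest fitted changes were those of *HOXA-AS3* (at least 71.5-fold), *HOTAIRM1* (at least 41.3-fold) and *HOXA11-AS* (at least 37.1-fold). *HAGLR* of the HOXD cluster was the exception and fell by 1.36 on the log2 scale (SE 0.25, adjusted p = 4.81e-04). Between the clones, 6 of 15 passed as lower in CS16 than in CS19 and 0 as higher. Of all genes tested there, 12.7% passed as lower. Most of the 6 came from 1 cluster: *HOXA-AS2*, *HOXA-AS3*, *HOXA10-AS* and *HOXA11-AS* of HOXA, with *HOXC13-AS* and *HOXD-AS2* besides. Of 10 genes for PRC2 and other chromatin partners of *HOTAIR*, 2 passed as higher, 4 as lower and 0 were called, with a median of -0.17. Of all genes tested, 31.1% passed as higher and 32.6% as lower. Without WT-2, 5 of the 10 passed as lower, against 33.2% of all genes, and their median was -0.38.

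**Figure D3:**
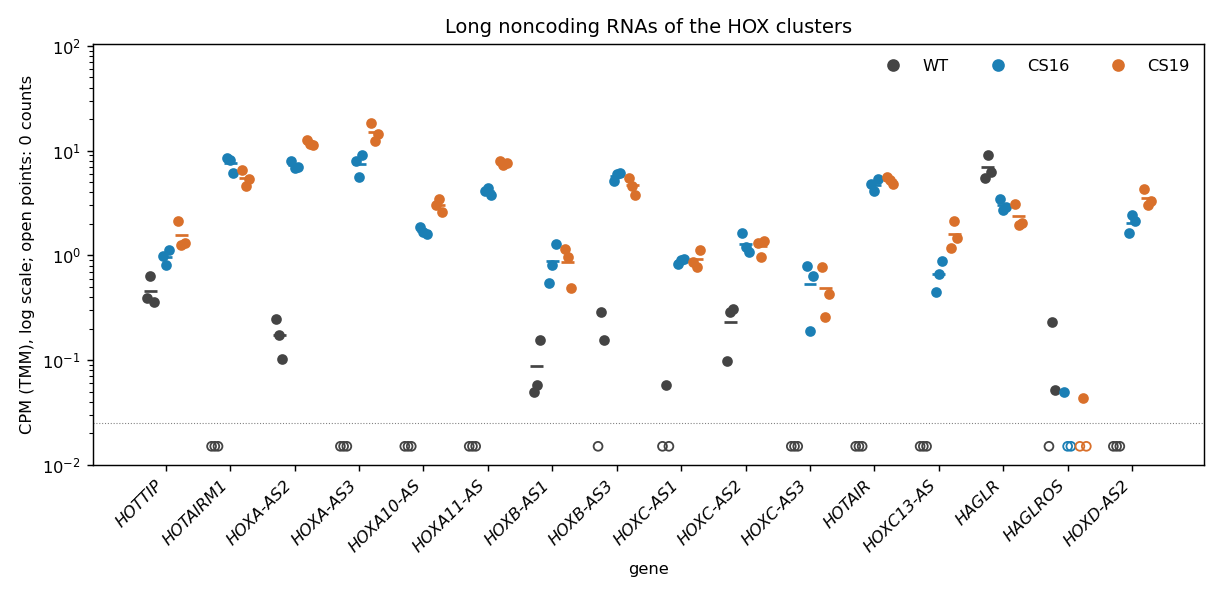
CPM per library, on a log scale, of 16 long noncoding RNAs of the HOXA, HOXB, HOXC and HOXD clusters, with open points for 0 counts and lines for the mean of a group without zeros. *HOTAIR* and 7 others are at 0 in all WT libraries and above 0 in all *SNAI1*-KO libraries, and *HAGLR* lies lower in the *SNAI1*-KO libraries than in WT.

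Leaving out WT-2 changed whether the 2 snoRNA hosts passed. *GAS5* (ENSG00000234741.8, chr1:173858559-173868882, minus strand), known as a growth-arrest transcript, had 158, 51.5 and 186 CPM in WT, 210, 247 and 222 CPM in CS16, and 241, 182 and 238 CPM in CS19. All CS16 libraries were above WT, and CS19-2 lay below WT-3. With all libraries the log2 fold change was 0.76 (SE 0.32, adjusted p = 0.0540). *SNHG1* (ENSG00000255717.7, chr11:62851984-62855953, minus strand) had 177, 51.8 and 213 CPM in WT, 119, 128 and 129 CPM in CS16, and 132, 114.2 and 132 CPM in CS19. Here WT-2 was below all *SNAI1*-KO libraries and the other 2 WT libraries were above them. The log2 fold change was -0.23 (SE 0.32, adjusted p = 0.551). Without WT-2, *GAS5* rose by 0.37 on the log2 scale (adjusted p = 0.0257) and *SNHG1* fell by 0.64 (adjusted p = 1.39e-04). Without WT-3, *GAS5* was at 1.11 (adjusted p = 0.0166) and *SNHG1* at 0.16 (adjusted p = 0.708), which turned its direction. DESeq2, which gave *GAS5* 0.75 (adjusted p = 0.0364), also differed from edgeR's TMM fit in its call, as did upper-quartile normalization and no filter (adjusted p = 0.0341 and 0.0163), and the adjusted p over all alternatives ranged from 0.0163 to 0.0869.

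*TUG1* (ENSG00000253352.10, chr22:30969245-30979395, plus strand), a broadly expressed lncRNA that the gencode release used for biotypes lists as protein-coding, had the smallest spread among the WT libraries, with a coefficient of variation of 12.3%. Its level was 137, 121 and 107 CPM in WT, 113.4, 95.4 and 96.9 CPM in CS16, and 104, 102 and 100 CPM in CS19. The log2 fold change was -0.26 with a 95% interval from -0.53 to 0.018 (adjusted p = 0.0937). Without WT-2 it was -0.27 (adjusted p = 0.0439), and by DESeq2 -0.26 (adjusted p = 0.0489). In the fits without WT-2, 34% of all genes passed as higher and 33.2% as lower, against 31.1% and 32.6% with all libraries, so passing was common for any gene.

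**Figure D4:**
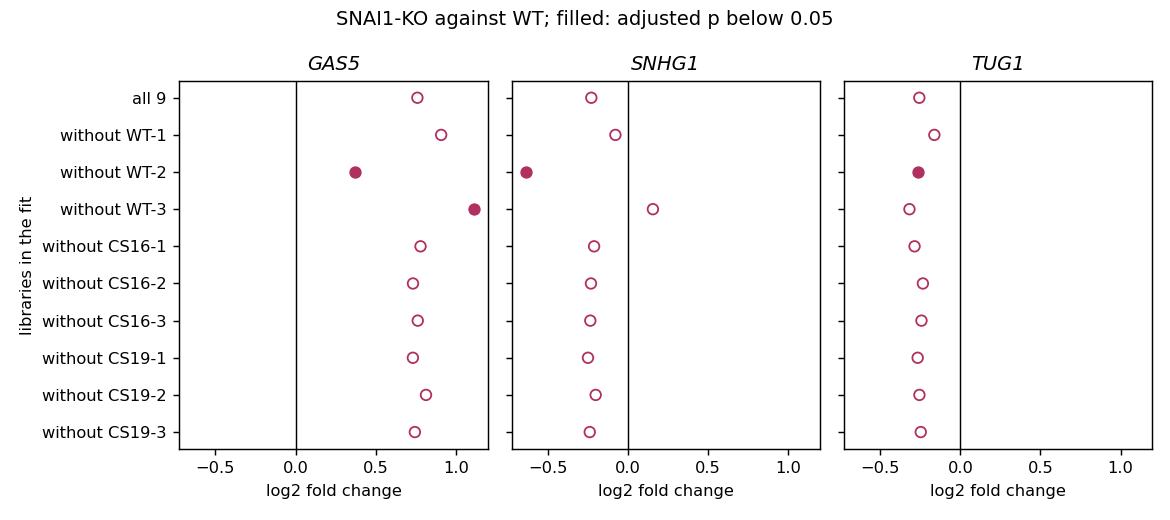
Fitted log2 fold change of *GAS5*, *SNHG1* and *TUG1* in *SNAI1*-KO against WT with all 9 libraries and with each library left out in turn, filled where the adjusted p was below 0.05. Leaving out WT-2 moves *GAS5* from 0.76 to 0.37 and *SNHG1* from -0.23 to -0.64, and no single *SNAI1*-KO library moves either by as much.

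Among the coding neighbours, *SLC3A2*, 51 bases from *SNHG1*, and *MORC2*, 471 bases from *TUG1*, did not pass (adjusted p = 0.247 and 0.546). Without WT-2, *MORC2* turned from -0.19 to 0.35 on the log2 scale and passed (adjusted p = 0.0402). The snoRNA genes matched by symbol to *GAS5* (4) and *SNHG1* (10) were all too low to be tested. Of 28 snoRNA host genes named SNHG, 26 were tested, 5 passed as higher and 9 as lower, and 1 was called, *SNHG18*, which went from 172, 108 and 155 counts to 0 (at least 58.4-fold lower). The median log2 fold change of the 26 was 0.038. Of all genes tested, 31.1% passed as higher, 32.6% passed as lower and 14.3% were called lower. Without WT-2, 5 of the 26 passed as higher and 12 as lower, and their median was -0.32. The shares of all genes were then 34% and 33.2%. Of 9 snoRNP core protein genes, 4 passed as higher and 0 as lower (median 0.49), and of 10 genes of nonsense-mediated decay, 2 passed as higher and 5 as lower (median -0.55). Without WT-2 the latter median was -0.098.

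SNAIL binds the E-box CACCTG, which reads CAGGTG on the other strand. RefSeq promoters, from 250 bases before to 50 after a transcript start, were given for 7 of the 10 genes. One of these letter strings was in the promoter of *GAS5*, in that of *SNHG1* and in 1 of 6 promoters of *MIR100HG*, and 20.6% of all 35116 promoters held one. No CRE (TGACGTCA) was found in them, against 1.85% of all promoters. The short stretches with the E-box in capitals are shown because SNAIL is the targeted factor.
*GAS5*: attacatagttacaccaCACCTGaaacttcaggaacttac
*SNHG1*: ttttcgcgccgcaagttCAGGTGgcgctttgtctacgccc
*MIR100HG*: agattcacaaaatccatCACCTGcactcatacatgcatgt
These began 195, 164 and 225 bases before the start. A match describes the letters and not a bound site.

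**Figure D5:**
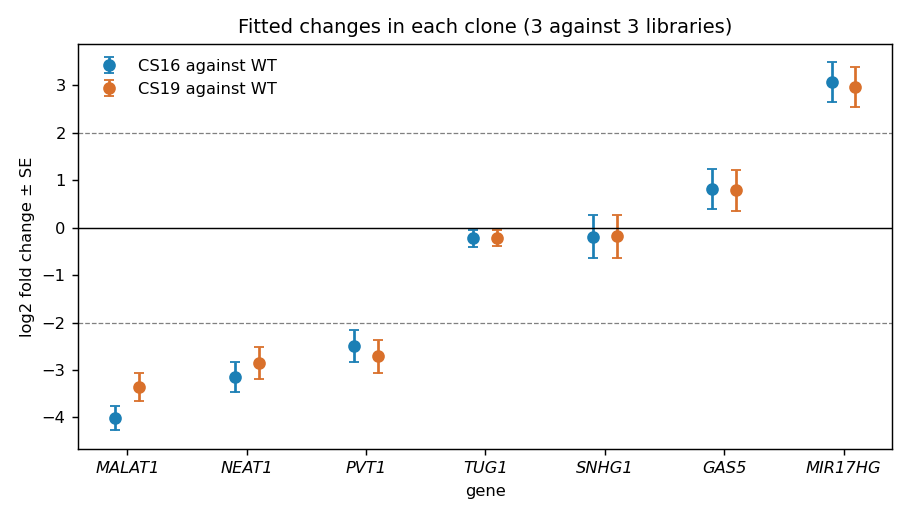
Fitted log2 fold change ± SE of 7 of the genes in CS16 against WT and in CS19 against WT, with 3 libraries a group and dashed lines at the cut-off of 2 in either direction. *MALAT1*, *NEAT1* and *PVT1* are below the lower line and *MIR17HG* above the upper line in both clones, and *MALAT1* is lower in CS16 (-4.02) than in CS19 (-3.36).

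Between CS16 and CS19, 8 of the 10 genes could be tested. *MALAT1* alone passed, as given above, and 0 were called, against 1.13% of all genes. For *GAS5* the difference was 0.033 with a 95% interval from -0.19 to 0.26, for *SNHG1* -0.013 with an interval from -0.17 to 0.15, and for *TUG1* -0.0059 with an interval from -0.17 to 0.16.

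Levels of different genes were compared per length, as TPM (counts per base, scaled to the same total in each library) over the union of a gene's exons. In WT the order was *MALAT1* (2281 ± 724 TPM), *NEAT1* (156 ± 67.0), *SNHG1* (115.6 ± 61.3), *GAS5* (85.1 ± 42.2), *TUG1* (38.9 ± 8.99), *MIR100HG* (14.1 ± 4.35), *MIR17HG* (11.4 ± 5.76) and *PVT1* (9.90 ± 5.15), with *HOTAIR* and *MIR205HG* at 0 (SD, n = 3). From *NEAT1* to *TUG1* each gene overlapped with the next in this order, as did *MIR100HG*, *MIR17HG* and *PVT1*. In the *SNAI1*-KO libraries the order was *MALAT1* (166 ± 50.9 TPM), *GAS5* (141 ± 11.7), *SNHG1* (97.0 ± 7.44), *MIR17HG* (86.0 ± 10.3), *TUG1* (31.0 ± 4.99), *NEAT1* (18.0 ± 4.02), *HOTAIR* (5.90 ± 0.981) and *PVT1* (1.496 ± 0.277), with *MIR100HG* and *MIR205HG* near 0 (SD, n = 6). *MALAT1* and *GAS5* overlapped there, as did *SNHG1* and *MIR17HG*. The order depends on the length used. With the longest annotated transcript in place of all exons, *PVT1* and *MIR100HG* were at 101 and 89.2 TPM in WT, *GAS5* (131) was above *SNHG1* (122) in WT, and in the *SNAI1*-KO libraries *GAS5* (217) was above *MALAT1* (141).

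The 10 genes together took 0.910%, 0.696% and 0.559% of the counted pairs in WT and between 0.106% and 0.173% in the *SNAI1*-KO libraries. Means were 0.722 ± 0.177% and 0.125 ± 0.0262%, a difference of -0.597 percentage points (exact two-sided permutation test, p = 0.0238, the smallest that 6 against 3 libraries allow). *MALAT1* and *NEAT1* carried it: the other 8 genes took 0.0564 ± 0.0163% and 0.0601 ± 0.00555% (exact permutation test, p = 0.619). Among all lncRNA genes tested, 656 of 3640 (18.0%) were called lower and 537 (14.8%) higher, against 13.4% and 12.1% of 14254 protein-coding genes. Of 24 other tested cancer lncRNAs, 5 were called higher and 5 lower. Of the 24, 3 had 0 counts in all WT libraries and could only be called higher. The largest fitted changes were those of *CDKN2B-AS1* (at least 94.0-fold higher), which lies at 9p21, *DLX6-AS1* (at least 31.9-fold higher), *PURPL* (log2 fold change 9.48), *UCA1* (-7.30), *LUCAT1* (-5.89) and *LINC00511* (-4.16).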

How the data were processed

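The authors made stranded total RNA libraries depleted of ribosomal RNA, trimmed reads with trimmomatic 0.36, aligned them to GRCh38.p13 with STAR 2.7.2b and counted pairs on gencode 38 with featureCounts (Subread 2.0.0), keeping pairs with both mates aligned, no chimera and a mapping quality of at least 30. Per the file headers strand and multi-overlap were not used. The deposited values were raw counts per gene for each of 9 libraries, grouped by their titles. Symbols were matched for 60463 of 60708 genes.

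Counts were filtered with filterByExpr, normalized by TMM and tested with edgeR 4.0.16 (R 4.3.3; SE is the size of the log2 fold change over the root of F). Exact permutation tests used scipy 1.17.1. Alternatives were DESeq2 1.42.0, RLE and upper-quartile scaling, other filters, call rules, the replicate block, a shared fit, other lengths and denominators, and leaving out each library. CPM used TMM-scaled sizes, and biotypes, neighbours and transcript lengths came from gencode 44 on the same build. On simulated data edgeR recovered 198 of 200 genes changed by a log2 fold of 3, with 2 false calls among 19631 genes in *SNAI1*-KO against WT. The simulation changed only those 200 genes and had no library like WT-2. In the real comparison 12.6% of genes were called higher and 14.3% lower, so the number of false calls need not carry over. Samples with the same number did not deviate together (correlations of their deviations from -0.386 to 0.331), so the numbers did not pair them.

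The 10 genes, the lists and the tests were chosen with earlier results of these data known. The text names all 10 genes, neighbours and overlapping genes, and up to 3 called genes per direction of a list with the largest log2 fold change. Genes said to be named after their values were seen fall outside that rule. The exact interval of *MIR100HG* and the floors cover counting error alone. The 95% intervals of log2 fold changes were built from the SE of edgeR and include the spread between libraries. Some neighbouring or overlapping genes are not reported here. Promoters of *NEAT1*, *PVT1* and *HOTAIR* were not analysed here.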

Additional observations from a re-analysis of the deposited data

Results flagged for a closer look

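*MALAT1* was lower in CS16 than in CS19, with a log2 fold change of -0.66 (SE 0.14, adjusted p = 0.00325, edgeR), so its change from WT differed between the clones. Both clones are compared with the same WT libraries, and the difference was tested directly between their 3 libraries each. The log2 fold change ranged from -0.80 to -0.44 over the alternatives run, and the adjusted p was above 0.05 only in the fit that shares the spread of all 3 groups (0.194). In 9 sets of values from the 6 *SNAI1*-KO libraries, Dixon's test found no library far from the rest.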

How the results depend on the processing

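The 6 calls among the 10 genes held in *SNAI1*-KO against WT, CS16 against WT and CS19 against WT under every alternative run. The number of genes called in *SNAI1*-KO against WT, 5272, was 5220 with the replicate block, 8662 with no filter, 12506 with no fold-change cut-off, 9251 with a cut-off of 1, and 5165 to 5963 with each library left out. In CS16 against WT, 5045 became 10342 with no fold-change cut-off and 8567 with a cut-off of 1. In CS19 against WT, 4990 became 7513 with no filter, 10014 with no fold-change cut-off and 8309 with a cut-off of 1. In CS16 against CS19, 198 became 352 with no filter, 4814 with no fold-change cut-off, where 1 of the 10 genes passed, and 833 with a cut-off of 1.

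The share of counted pairs differed by 0.00364 percentage points in the other direction without *MALAT1* and *NEAT1*, and by -0.678 to -0.503 with each library left out, where the smallest possible p without a WT library is 0.0714. *SNHG1* turned direction without WT-3. With each library left out its log2 fold change ranged from -0.64 to 0.16 in *SNAI1*-KO, -0.64 to 0.17 in CS16 and -0.61 to 0.18 in CS19 against WT. With the replicate block, which pairs libraries by number alone, it was 0.012 in CS16 and 0.031 in CS19 against WT. The block turned no other gene of the 10, gave *GAS5* an adjusted p of 0.0312 in *SNAI1*-KO against WT, and left 0 nuclear speckle genes called. In CS16 against CS19, values near 0 turned with a library left out: *SNHG1* ranged from -0.072 to 0.035, *GAS5* from -0.080 to 0.11, *MIR17HG* from -0.041 to 0.22 and *TUG1* from -0.088 to 0.045. *TUG1* also turned with RLE (0.0054), DESeq2 (0.0054) and without the 100 highest genes (8.44e-04). The cause was not tested.

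The depth, at least 19527195 pairs, leaves *MIR205HG*, and *MIR100HG* in the *SNAI1*-KO libraries, at or under 3 counts.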
